A study of Homo sapiens with 6 samples.

Results

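The cytosolic ribosomal protein genes were followed in SK-Hep-1 cells with and without knockdown of the long non-coding RNA *RAB30-DT*. They were taken as the protein-coding genes of GENCODE release 44 whose symbols begin with RPL or RPS and carry a number, with an optional final A, L or X, together with *RPLP0*, *RPLP1*, *RPLP2* and *RPSA*. This rule used names alone and found 81 of the 62700 genes in the files, 49 of the large and 32 of the small subunit. RNA-seq covered 6 libraries of SK-Hep-1, a human liver tumor cell line that the study's text describes as endothelial-derived. The 3 control libraries are titled shControl, with the genotype label WT, and the 3 knockdown libraries carry the genotype label RAB30-DT knockdown. The 3 libraries of each group are here named by these labels. The study made its stable lines by lentiviral transduction of shRNA vectors followed by puromycin selection, and made more than 1 *RAB30-DT* vector, of which the labels do not name the one used. Nothing in the labels says that the libraries of a group came from separate cultures, so p-values measure only the spread between these samples, which may be technical.

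Ribosomal proteins surround the ribosomal RNA of both subunits, and each subunit takes up most of its proteins in a single copy, so the genes are known for expression at high and similar levels. Their mRNAs are the main carriers of the 5′ terminal oligopyrimidine (TOP) element, a C at the cap followed by a run of pyrimidines, through which mTOR signaling, the 4E-BP proteins and LARP1 regulate translation. Many of the genes host small nucleolar RNAs in their introns, and most have processed pseudogenes in the genome. Growth of tumor cells needs many ribosomes, and MYC is the best known activator of the genes.

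Starts of 64 of the 81 genes were found in the RefSeq promoter table (GRCh38.p14). A run of at least 5 pyrimidines that opens with C at the annotated start, the letters expected of a TOP element, was present for 46 of these 64 (71.9%) and for 1404 of the 27305 genes of the whole table (5.14%). Where a gene had several starts, the one with the longest run was taken. The windows printed here are 30 bases long, 10 before and 20 from the start onward, 5′ to 3′, with the run from the start in capitals. They belong to the 3 genes that passed the test in knockdown cells, to 2 genes with a high and 2 with a near-zero difference, to *RPL39* with 19 pyrimidines, and to the paralog *RPS27L*, which has no such run at its listed start.
RPL29 (chr3:51995876-51995905, minus strand): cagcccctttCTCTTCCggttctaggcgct
RPS25 (chr11:119018324-119018353, minus strand): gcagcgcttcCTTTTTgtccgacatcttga
RPL10 (chrX:154398367-154398396, plus strand): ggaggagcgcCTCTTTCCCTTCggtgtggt
RPS3A (chr4:151099618-151099647, plus strand): cccacttccgCCCTTTTggctctctgacca
RPS6 (chr9:19380217-19380246, minus strand): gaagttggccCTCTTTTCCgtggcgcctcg
RPS9 (chr19:54200848-54200877, plus strand): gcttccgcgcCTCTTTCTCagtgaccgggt
RPL35 (chr9:124861938-124861967, minus strand): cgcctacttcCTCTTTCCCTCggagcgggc
RPL39 (chrX:119791611-119791640, minus strand): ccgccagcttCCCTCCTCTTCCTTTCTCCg
RPS27L (chr15:63157458-63157487, minus strand): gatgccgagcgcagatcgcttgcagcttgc
*RPS9* and *RPL35*, which did not differ between the groups beyond their spread, carry runs like those of *RPL29* and *RPS6*. A match describes the letters at a listed start and does not show where transcription began in these cells.

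The deposited values are TPM, a length-corrected measure of transcript abundance, which the authors scaled for gene length and to the same total in every library, so a value is a share of the measured mRNA and the depth of a library is unknown. Control replicates 1, 2 and 3 had 18.2, 11.5 and 13.9 TPM of *RAB30-DT* itself, the knockdown replicates 11.9, 10.8 and 6.5 TPM. The groups overlapped in 1 library on each side, and limma gave a log2 fold change of −0.55 with a standard error of 0.27 and an adjusted p = 0.355. All 5 endothelial markers examined were below 1 TPM in all libraries, summing to between 0.13 and 0.38 TPM, of 6 hepatocyte markers only *SERPINA1* was above it, and the mesenchymal markers *VIM*, *CD44* and *THY1* were at 76.0 TPM or more in every library while *COL1A1* was at 0.59 to 2.41 TPM. The summed mesenchymal markers, mostly *VIM*, were at 4403 to 4808 TPM in control and 5108 to 5634 TPM in knockdown libraries. *VIM* and *CD44* were each higher in all knockdown than in all control libraries, and *COL1A1* overlapped. *THY1* went the other way, at 102 to 148 TPM in control and 76.0 to 98.7 TPM in knockdown libraries. The summed hepatocyte markers, nearly all *SERPINA1*, were at 18.1 to 24.0 TPM in control and 28.2 to 37.2 TPM in knockdown libraries. *ALB*, *TTR*, *HNF4A* and *CYP3A4* were at 0. The part of these differences in the results was not tested. In bulk RNA, a different mix of cells and a different amount of RNA per cell cannot be told apart, nor can more ribosomal protein mRNA and less of all other mRNA.

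Ribosomal protein genes took up a larger share of the mRNA in every knockdown library than in any control library. Replicates 1, 2 and 3 of the control had 18.3, 18.7 and 19.0% of all TPM in these 81 genes, and those of the knockdown 23.5, 24.2 and 25.5%. The groups did not overlap, and the mean went from 18.7 ± 0.341% to 24.4 ± 1.02% (SD, n = 3 each), 1.31 times the control share. With quantile normalization, which gives each library the same distribution of values, the difference of 5.71 percentage points was 2.55 points. The mean TPM per gene was 2306 ± 42.1 in control and 3011 ± 127 in knockdown libraries (SD, n = 3 each). Among the 100 genes with the highest TPM, 56, 53 and 55 were ribosomal protein genes in the 3 control libraries, and 63, 64 and 65 in the 3 knockdown libraries. The share of the mitochondrially encoded genes, which compete for the same total, overlapped between the groups at 8.75 to 10.6% in control and 8.80 to 11.1% in knockdown libraries.

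**Figure D1:**
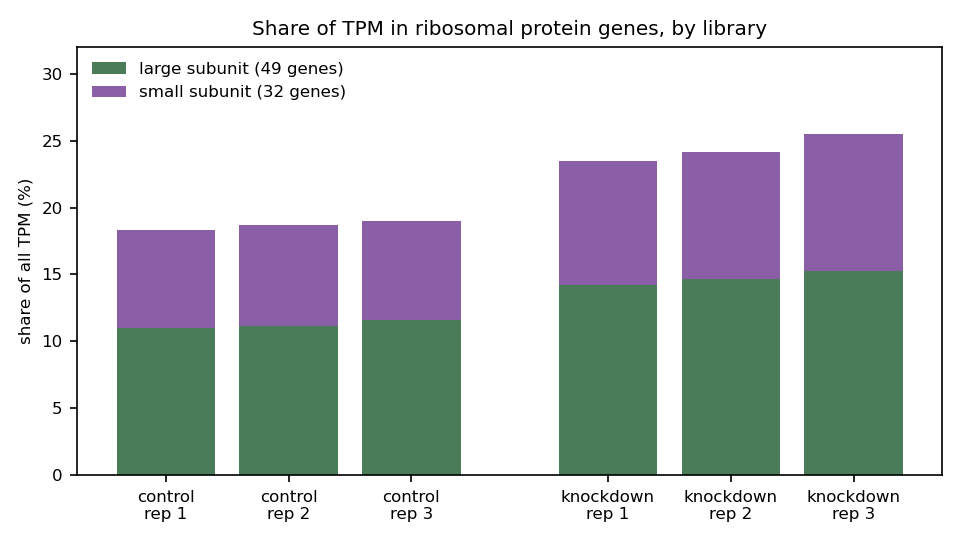
Stacked bars give the share of all TPM (%) held by ribosomal protein genes of the large (49 genes) and small subunit (32 genes) in each of the 6 libraries. The 3 knockdown libraries lie between 23.5 and 25.5%, above the control libraries at 18.3 to 19.0%, and the split between the subunits looks alike in all 6.

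Both subunits contributed alike. Genes of the large subunit held 11.2 ± 0.280% of TPM in control and 14.7 ± 0.521% in knockdown libraries, and those of the small subunit 7.43 ± 0.112% and 9.72 ± 0.512% (SD, n = 3 each). The ratio of large to small subunit TPM was 1.51, 1.48 and 1.55 in the control libraries and 1.52, 1.54 and 1.48 in the knockdown libraries, in the order of their replicate numbers. These ranges overlapped, and the means of 1.51 ± 0.0349 and 1.51 ± 0.0298 (SD, n = 3 each) differed by less than the spread between replicates. The median log2 fold change was 0.43 for the 47 large subunit genes tested and 0.44 for the 32 small subunit genes, against −0.04 for all 14020 genes tested.

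Gene by gene, the values were compared as log2(TPM + 1) with limma for all genes that averaged 1 TPM or more, 2-sided, with Benjamini-Hochberg adjustment over these genes. This filter kept 79 of the 81 genes. *RPL10L*, the paralog of *RPL10* known from testis, was listed at 0 in all 6 libraries, and *RPL3L*, the paralog of *RPL3* known from muscle, was at 0 to 0.27 TPM. Of the 79 genes, 76 had a positive log2 fold change, or 66 with quantile normalization, and the median was 0.43, a ratio of 1.35, or 0.21 with quantile normalization. At an adjusted p under 0.05, 3 of the 79 rose in knockdown cells where 0.371% of all genes tested did, and 0 fell where 0.670% did. At an unadjusted p under 0.05 there were 59 of 79 genes, where 16.8% of all genes tested were. In 62 of 79 genes the lowest knockdown library exceeded the highest control library, which held for 9.89% of all genes tested, and in 1, *RPL39L*, the knockdown libraries were all lower than the control libraries, which held for 13.4%. The number that passed depended on single libraries. It was 0 without control replicate 2 or without any 1 of the knockdown replicates, 1 without control replicate 3 and 22 without control replicate 1, a fit in which 182 of 14006 genes rose, while the median stayed between 0.38 and 0.43. No filter on low values or no trend in limma's variance model gave 0, and 11 genes passed, where 0.605% of all genes rose, when TPM were rescaled to the total of all genes other than ribosomal protein genes and their pseudogenes.

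**Figure D2:**
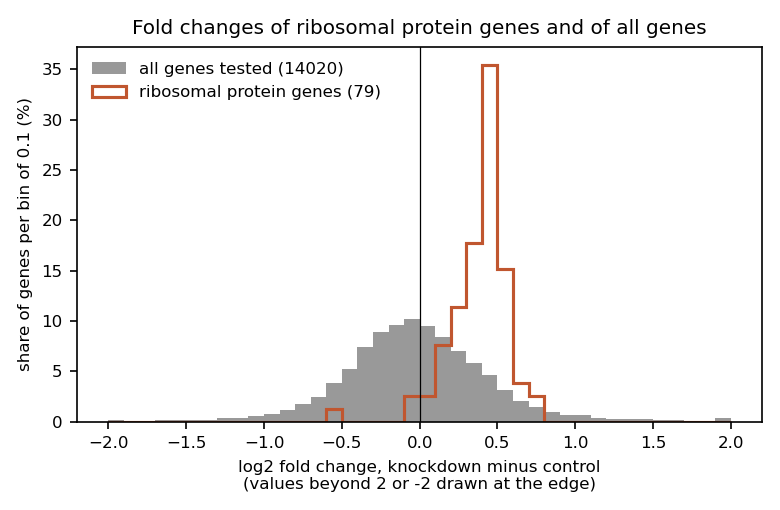
Histogram of log2 fold changes (knockdown minus control, bins of 0.1) as a share of genes (%), for all 14020 genes tested (grey) and the 79 ribosomal protein genes tested (line). The ribosomal protein genes lie mostly between 0.1 and 0.8 with a median of 0.43, while all genes have a median of −0.04.

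The 3 genes that rose were *RPL29*, *RPS25* and *RPL10*. *RPL29*, a large subunit protein known also for binding heparin, was at 2070, 1965 and 2058 TPM in control and 3195, 3451 and 3293 TPM in knockdown libraries, given here and hereafter by replicate number. Its control libraries lay close together and well below all knockdown libraries, with a log2 fold change of 0.71 (standard error 0.09, limma adjusted p = 0.0252). *RPS25*, a small subunit protein needed for initiation at several viral internal ribosome entry sites, was at 2306, 2443 and 2273 TPM in control and 3343, 3396 and 3491 TPM in knockdown libraries. The groups again did not overlap, with a log2 fold change of 0.54 (standard error 0.09, limma adjusted p = 0.0417). *RPL10*, which joins the large subunit late in its assembly and lies near the peptidyl transferase center, was at 4573, 4672 and 4360 TPM in control and 6014, 6548 and 6679 TPM in knockdown libraries. Its log2 fold change was 0.50 (standard error 0.09, limma adjusted p = 0.0491). These 3 genes had small spreads within groups, with coefficients of variation of 3.36, 3.03 and 4.51% against a median of 9.58% over the genes tested. Over 22 fits, the one reported and those under other settings, *RPL29* passed in 15, *RPS25* in 13 and *RPL10* in 11, with adjusted p from 0.00136 to 0.153, from 0.00523 to 0.239 and from 0.00538 to 0.537. All 3 calls were lost without control replicate 2 or any 1 knockdown replicate, and those of *RPS25* and *RPL10* also without control replicate 3.

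On hg38, *RPL29* (ENSG00000162244.12) lies on the minus strand of chromosome 3 from 51993522 to 51995895, with 4 exons in its canonical transcript. *RPS25* (ENSG00000118181.11) lies on the minus strand of chromosome 11 from 119015712 to 119018691, with 5 exons. *RPL10* (ENSG00000147403.18) lies on the plus strand of chromosome X from 154389955 to 154409168, with 7 exons. The last pair overlaps genes on the other strand, *CENATAC* and *DNASE1L1*, and the library kit as described does not mark strand. *CENATAC* was at a mean of 22.0 TPM in control and 19.9 TPM in knockdown libraries, and *DNASE1L1* at 26.3 and 32.7 TPM.

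**Figure D3:**
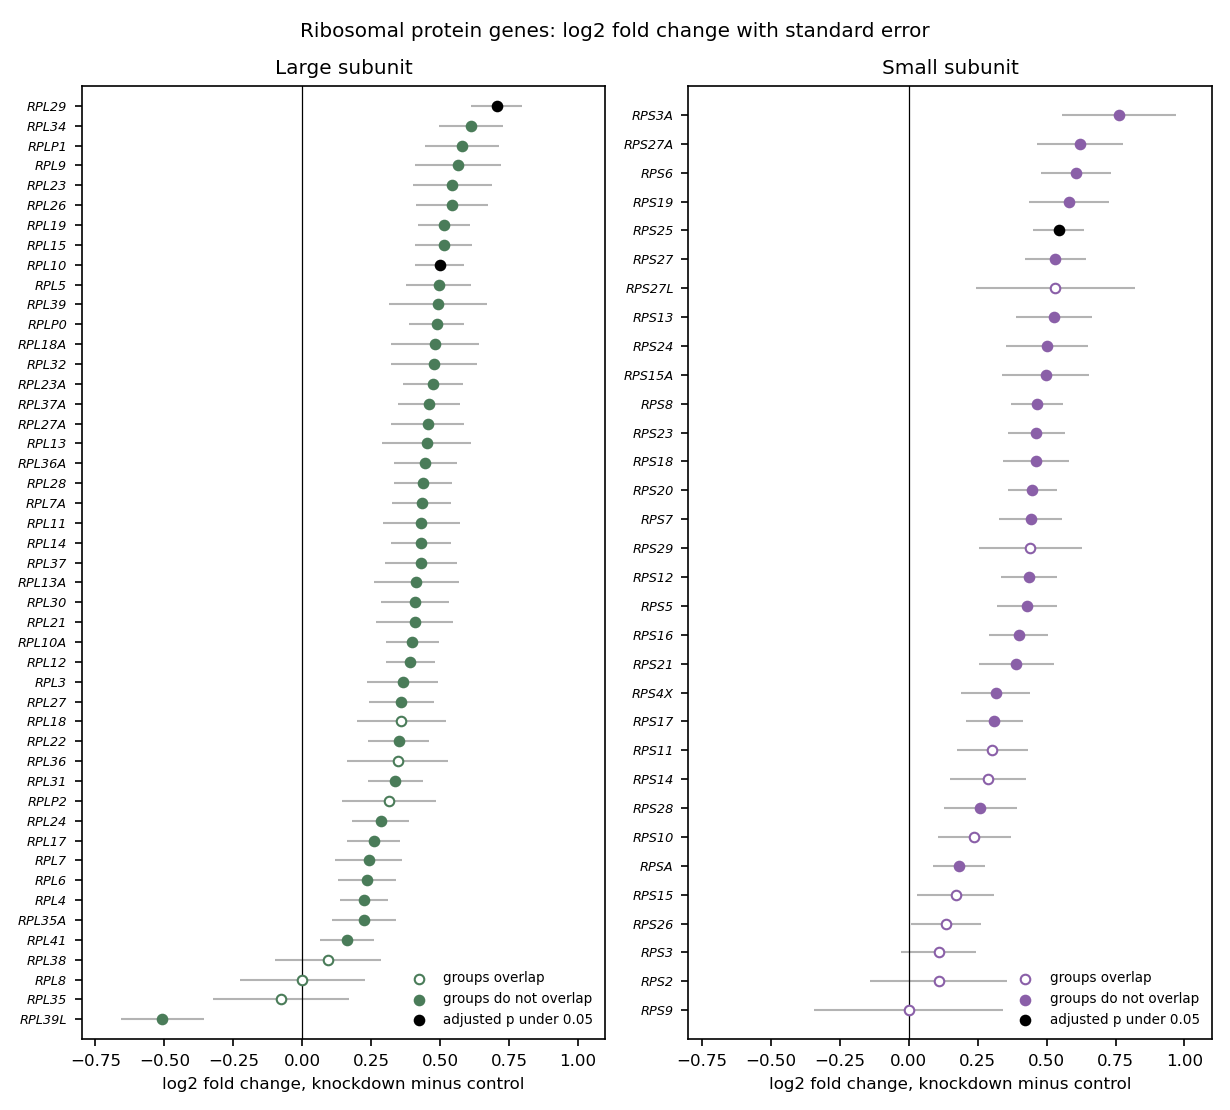
Log2 fold changes (knockdown minus control) with standard errors for the 47 large and 32 small subunit genes tested. Black points passed an adjusted p under 0.05, filled points are genes whose groups did not overlap, and open points genes whose groups did. All points but those of *RPL39L*, *RPL35* and *RPS9* are above 0.

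Other members had positive differences that did not pass the test. *RPS3A*, a small subunit protein, had the highest log2 fold change, 0.76 (standard error 0.21, limma adjusted p = 0.126). It was at 2574, 1769 and 1439 TPM in control and 3632, 3075 and 2864 TPM in knockdown libraries, so the lowest knockdown library was above the highest control library but the spread within groups was wide. *RPS27A*, made as a fusion with ubiquitin, had 0.62 (adjusted p = 0.112), *RPL34* had 0.61 (adjusted p = 0.0582), and *RPS6*, the best known substrate of S6 kinase, had 0.61 (adjusted p = 0.0719). *RPS6* was at 1916, 1648 and 1517 TPM in control and 2818, 2556 and 2352 TPM in knockdown libraries. *RPS19*, the gene most often mutated in Diamond-Blackfan anemia, had 0.58 (adjusted p = 0.104), from 2902 ± 429 to 4334 ± 560 TPM (SD, n = 3 each). *RPL3*, which lies at the peptidyl transferase center, had 0.36 (adjusted p = 0.214).

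The genes with the highest control levels were *RPL13*, *RPS27*, *RPL10*, *RPS18* and *RPL4*. *RPL13* was at 4744, 6831 and 6436 TPM in control and 6923, 8457 and 9124 TPM in knockdown libraries, and *RPS27* at 5361, 4429 and 4480 and at 7377, 6270 and 6958 TPM. Both sets of libraries were apart without passing the test (log2 fold changes 0.45 and 0.53, limma adjusted p = 0.217 and 0.0733). *RPS18* had a log2 fold change of 0.46 (adjusted p = 0.120) and *RPL4*, with control libraries from 4065 to 4307 TPM, one of 0.22 (adjusted p = 0.241). *RPL41*, whose product is the smallest ribosomal protein, had 0.16 (adjusted p = 0.441), and its knockdown libraries at 4391 to 4964 TPM were close above its control libraries at 3857 to 4343 TPM. With quantile normalization the log2 fold changes of *RPL4* and *RPL41* were −0.08 and −0.09. Leaving out the 4 paralogs *RPL3L*, *RPL10L*, *RPL39L* and *RPS27L*, the 77 genes spanned mean control levels of 579 TPM (*RPL36*) to 6004 TPM (*RPL13*), a ratio of 10.4. Their order was similar in all libraries, with Spearman's rho from 0.808 to 0.979 between pairs of libraries across these 77 genes, given as a description.

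The parts of the ribosome were described by lists of members. Of the P stalk, which recruits the elongation factors, all 4 genes had positive log2 fold changes and 0 passed the test, with 0.58 for *RPLP1*, 0.49 for *RPLP0*, 0.39 for the stalk base *RPL12* and 0.31 for *RPLP2* (limma adjusted p = 0.0911, 0.0712, 0.0894 and 0.394). *RPLP2* alone of these overlapped between groups, at 1079 to 1490 TPM in control and 1415 to 1965 TPM in knockdown libraries. *RPL5* and *RPL11*, which bind the 5S rRNA and, when free of ribosomes, the p53 regulator MDM2, had 0.50 and 0.43 (adjusted p = 0.0954 and 0.183) and did not overlap. Of 9 genes at the exit tunnel, 8 had positive values and did not overlap, with a median of 0.35, 0.54 for *RPL26* (adjusted p = 0.0980), 0.51 for *RPL19* (adjusted p = 0.0534) and −0.08 for *RPL35*. Of 9 genes along the mRNA path of the small subunit, all had positive values and 4 did not overlap, with a median of 0.18. The highest was *RPS23* at 0.46 (adjusted p = 0.0832) and the lowest *RPS2* at 0.11 (adjusted p = 0.865). The medians of these lists stand beside 0.43 for all members and −0.04 for all genes tested. Where groups did not overlap, the knockdown libraries were higher, which held for 62 of 79 members and 9.89% of all genes tested.

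Some members whose groups overlapped had wide spreads within the groups. *RPS9*, a small subunit protein near the mRNA entry, was at 1174, 2483 and 3174 TPM in control and 1701, 2050 and 2651 TPM in knockdown libraries. Replicate 1 was lowest and replicate 3 highest in both groups, and limma gave a log2 fold change of −0.00 with a standard error of 0.34 and an adjusted p = 1.00. *RPL8*, a large subunit protein near the peptidyl transferase center, was at 2091, 3229 and 3633 TPM and at 2315, 3042 and 3489 TPM, with a log2 fold change of 0.00 (standard error 0.23). *RPL35*, a protein of the tunnel exit, was at 2246, 3934 and 4225 TPM and at 2698, 3033 and 3887 TPM, with −0.08 (standard error 0.24), and *RPL38* had 0.09 (standard error 0.19). *RPS2*, with 2056, 3278 and 3741 TPM and 2412, 3370 and 3887 TPM, showed the same order of libraries. The coefficient of variation within groups was 33.6% for *RPS9*, 28.7% for *RPS27L*, 26.0% for *RPS2*, 25.0% for *RPL35* and 23.4% for *RPL8*, the 5 widest of the genes tested, and 2.05% for *RPL12*, 2.69% for *RPL10A* and 2.77% for *RPL4*, the 3 narrowest.

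**Figure D4:**
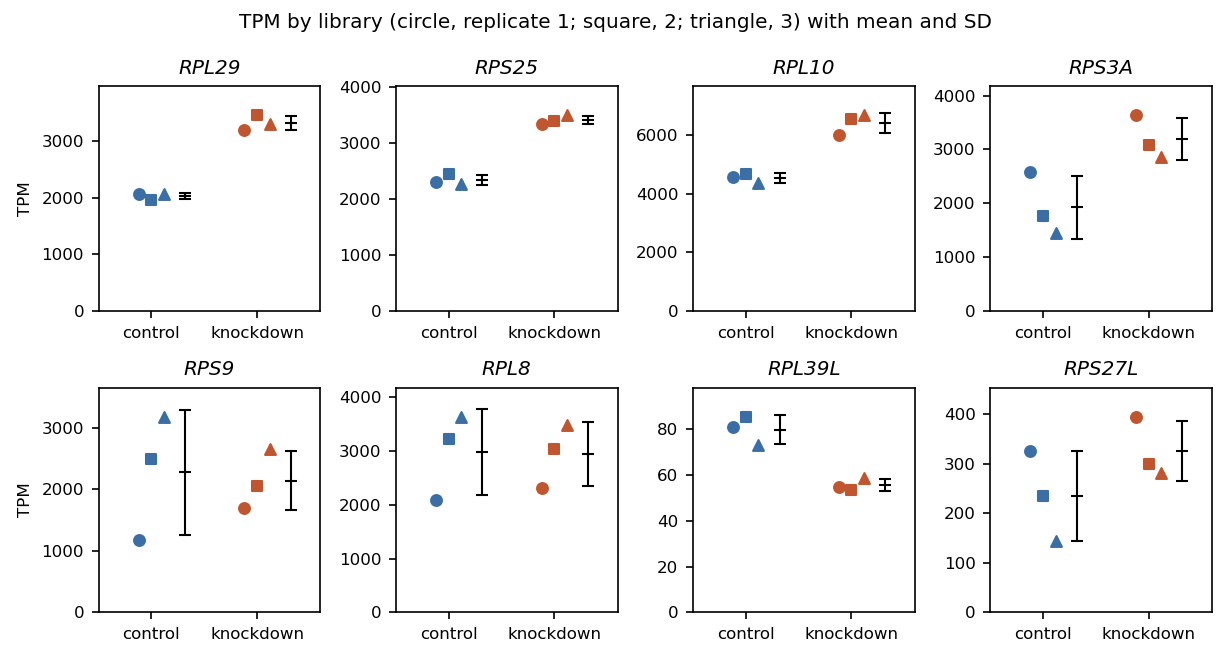
TPM of 8 ribosomal protein genes in the 3 control and 3 knockdown libraries, each replicate with its own marker, beside the mean and SD of each group. *RPL29*, *RPS25*, *RPL10* and *RPS3A* have all knockdown libraries above all control libraries, *RPL39L* has them below, and *RPS9*, *RPL8* and *RPS27L* overlap.

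This order of libraries ran with GC content. Within its group, a library's deviation from the group mean of each gene was compared with the GC content of the gene's canonical transcript, over the 78 members above 100 TPM, as a description across genes. Spearman's rho was −0.66, 0.46 and 0.51 in the control libraries and −0.67, 0.42 and 0.58 in the knockdown libraries, so GC-rich members were low in both libraries numbered 1. Over all genes tested the values were −0.70, 0.29 and 0.56 and −0.64, 0.23 and 0.54. The log2 fold change itself had a rho of −0.31 with GC content across 77 members, leaving out the 4 paralogs, and of 0.03 with transcript length. The 26 members of lowest GC content, 40.1 to 45.2%, had a median log2 fold change of 0.48, and 24 of them did not overlap. The 26 of highest, 51.9 to 63.6%, had 0.39, and 16 did not overlap. Where these did not overlap, the knockdown libraries were all higher, which held for 9.89% of all genes tested. Their median coefficient of variation within groups was 10.3% at lowest and 11.8% at highest GC content. Its part in these counts was not tested. With each library's trend with GC content over all genes removed, the median log2 fold changes were 0.43 and 0.42 and the rho was −0.11. In that fit 27 members rose where 3.01% of all genes did, and *RPL39L* fell (adjusted p = 0.0367) where 5.39% of all genes did. The log2 fold changes of *RPL29*, *RPS25*, *RPL10* and *RPS3A* were 0.75, 0.53, 0.54 and 0.71 (adjusted p = 0.0165, 0.0216, 0.0412 and 0.0277), and those of *RPS9*, *RPL8* and *RPL35* were 0.03, 0.08 and −0.02. The part of GC content in the differences between groups was not tested further.

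**Figure D5:**
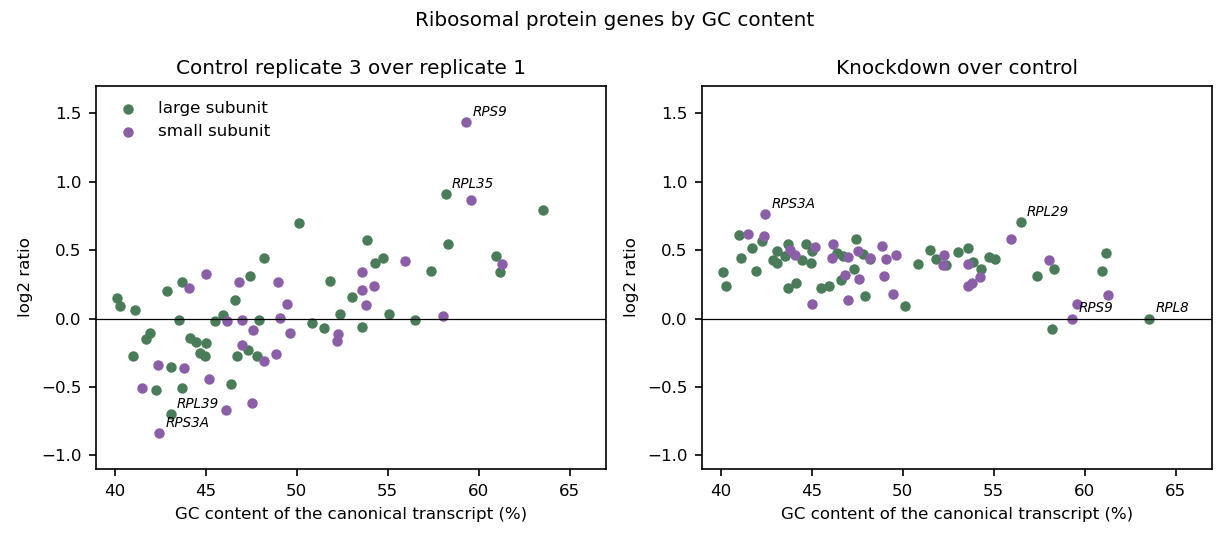
Log2 ratios of 77 ribosomal protein genes against the GC content (%) of the canonical transcript, for control replicate 3 over control replicate 1 (left) and for knockdown over control (right), colored by subunit. Between the 2 control libraries the ratio goes up with GC content, to above 1 for *RPS9*, while between the groups most genes lie between 0.1 and 0.8 at all GC contents.

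The paralogs did not follow their partners in all cases. *RPL39L*, the paralog of the exit tunnel protein *RPL39*, was at 80.6, 85.2 and 72.8 TPM in control and 54.8, 53.5 and 58.4 TPM in knockdown libraries. All knockdown libraries were below all control libraries, with a log2 fold change of −0.51 that did not pass the test (standard error 0.15, limma adjusted p = 0.152). *RPL39* was at 3548, 3164 and 2186 TPM and at 4018, 3797 and 4474 TPM (log2 fold change 0.49, adjusted p = 0.222). *RPL39L* thus stood at 2.27, 2.69 and 3.33% of *RPL39* in control and at 1.36, 1.41 and 1.31% in knockdown libraries, without overlap. *RPS27L*, a p53 target and paralog of *RPS27*, was at 325, 236 and 143 TPM and at 395, 300 and 282 TPM, with a log2 fold change of 0.53 (standard error 0.29, adjusted p = 0.395). It stood at 3.20 to 6.07% of *RPS27* in control and 4.05 to 5.36% in knockdown libraries, and these ranges overlapped.

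Close relatives whose names fall outside the rule were described beside them. Of 7 such genes, 4 had positive log2 fold changes, 0 passed the test and the median was 0.11. *RACK1*, the scaffold on the small subunit, had 0.29 (limma adjusted p = 0.241). The lowest were the paralogs *RPL26L1* and *RPL7L1*, both with −0.21 (adjusted p = 0.521 and 0.471). *RPL26L1* stood at 5.49 to 7.44% of *RPL26* in control and 3.62 to 4.48% in knockdown libraries, and *RPL7L1* at 3.42 to 4.04% and 2.43 to 2.92% of *RPL7*, both without overlap. *RPL22L1*, the paralog of *RPL22*, stood at 111, 86.5 and 78.2% of its partner in control and at 77.4, 61.4 and 53.0% in knockdown libraries. These ranges did not overlap, but control replicate 3 and knockdown replicate 1 lay within 1 percentage point. *RPL36AL*, with a log2 fold change of 0.11 (limma adjusted p = 0.730), stood at 20.7, 23.3 and 16.7% of *RPL36A* in control. In knockdown libraries it stood at 15.4, 17.1 and 15.3%, and these ranges overlapped.

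Other genes known to carry TOP elements were 18 in number, among them translation factors and *VIM*, which also served as a mesenchymal marker above. Of these, 14 had positive log2 fold changes, 0 passed the test and the median was 0.34. All knockdown libraries were above all control libraries in 8, which held for 9.89% of all genes tested. They were all below in 1, *EEF1B2*, which held for 13.4% of all genes tested. The highest were *TPT1*, the translationally controlled tumor protein, with 0.57 (limma adjusted p = 0.244), and the elongation factor *EEF1G* with 0.55 (adjusted p = 0.0603). The lowest were the nucleolar protein *NPM1* with −0.27 (adjusted p = 0.407) and the elongation factor *EEF1B2* with −0.26 (adjusted p = 0.333). Their summed share of TPM was 3.68, 3.18 and 3.19% in control and 4.39, 4.22 and 3.89% in knockdown libraries, without overlap. Among members, the 46 with a pyrimidine run at a RefSeq start had a median log2 fold change of 0.43, and the 17 tested without one had 0.36.

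Of 12 genes that control ribosomal protein genes or the translation of their mRNAs, 2 had positive values and the median was −0.10. *EIF4EBP2*, a 4E-BP that represses cap-dependent translation when mTOR is inactive, fell from 24.4 ± 5.36 to 7.13 ± 1.14 TPM (SD, n = 3 each). It was at 28.2, 26.7 and 18.3 TPM in control and at 7.55, 8.01 and 5.84 TPM in knockdown libraries, with a log2 fold change of −1.63 (limma adjusted p = 0.0267). Its call was lost without control replicate 2 (adjusted p = 0.141) and without knockdown replicate 1, 2 or 3 (adjusted p = 0.101, 0.136 and 0.133), and also with no filter on low values (adjusted p = 0.0942). *LARP1*, which binds the TOP element, had −0.41 (adjusted p = 0.283) with no overlap of the groups, and *GABPA* and *SP1* had the highest values, 0.47 and 0.01 (adjusted p = 0.450 and 0.987). *MYC* was at 133, 145 and 180 TPM in control and 146, 144 and 146 TPM in knockdown libraries, with −0.06 (adjusted p = 0.880). Of 6 chaperones and assembly factors dedicated to single ribosomal proteins, 0 had positive values and 0 passed the test, with a median of −0.28, from −0.73 for *GRWD1*, the chaperone of RPL3 (adjusted p = 0.270), and −0.48 for *PDCD2L* (adjusted p = 0.257) to −0.17 for *TSR2* and −0.11 for *PDCD2* (adjusted p = 0.777 and 0.753).

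The proteins of the mitochondrial ribosome are encoded by a separate set of nuclear genes and served for comparison. All 78 were tested, 25 had positive log2 fold changes, 0 passed the test and the median was −0.13. In 2 of them all knockdown libraries were above all control libraries, which held for 9.89% of all genes tested. In 16 all were below, which held for 13.4% of all genes tested. They held 0.565, 0.645 and 0.663% of TPM in control and 0.512, 0.533 and 0.576% in knockdown libraries, which overlapped. Among the 152 other nuclear genes that averaged 500 TPM or more, a group chosen after the values were seen, 49 had positive values and the median was −0.18.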

How the data were processed

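Poly(A)-selected RNA of SK-Hep-1 cells was sequenced as paired ends in 6 libraries, 3 per group by their titles. Per the study's methods, the authors used fastp for trimming, STAR for alignment and RSEM for quantification, and the deposited values are TPM per gene, whereas the submitters' processing notes name hg38, fastp and HISAT2 (2.0.5). How reads shared with pseudogenes were divided is not given in the sources used here beyond this. All versioned gene identifiers matched GENCODE release 44, which gave names, positions and GC content.

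Depth cannot be read from TPM, and counting intervals are therefore absent. limma 3.58.1 (R 4.3.3, lmFit, eBayes with trend) was run on log2(TPM + 1) for the 14020 genes that averaged 1 TPM or more. The fit had no replicate block. It was also run on simulated data with independent noise in each gene and library. Those data lack the deviations with GC content that same-numbered libraries share, so the fit was not tested under them. The log2(TPM + 1) scale slightly understates the change of low genes. An exact permutation test of 3 libraries against 3 cannot go below p = 0.1. Shares were taken over all genes, and no p was computed for sums or lists.

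The members and lists were chosen with earlier results of these data known. Named genes were, by rule, *RAB30-DT*, members that passed the test, the 5 highest and 5 lowest log2 fold changes, the 5 highest control levels, the 5 widest and 3 narrowest spreads, those below the filter, paralogs, P stalk and 5S rRNA binding proteins, *RPL41*, *RPS6*, *RPS19*, *RPS27*, *RPL39*, *RPL3* and *RPL10*, and from each list those that passed and the 2 highest and 2 lowest. *RPL22L1*, *RPL36AL*, *LARP1*, *MYC* and *RPL36*, with the ratios of *RPL26L1* and *RPL7L1* to their partners, were added after their values were seen. 1 gene that this rule names is not reported here. Sequences are from RefSeq. Alternatives were pseudocounts, filters, scalings, variance models, array weights, GC correction, a replicate block, other thresholds and each library left out.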

Additional observations from a re-analysis of the deposited data

How the results depend on the processing

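Values per gene rest on 3 libraries per group, depth is unknown, and TPM shares cannot tell a rise of these genes from a drop of others. The median log2 fold change of ribosomal protein genes, 0.43, was 0.21 with quantile normalization, 0.54 with TPM rescaled to genes other than ribosomal protein genes and their pseudogenes, and from 0.38 to 0.43 with 1 library left out. The share difference of 5.71 percentage points was 2.55 with quantile normalization and from 5.15 to 6.16 with 1 library left out. The count of 3 genes called higher was 0 without a filter or without a trend, 5 at a mean of at least 5 TPM, 1 with median-of-ratios scaling and with quantile normalization, 11 with the rescaling, 27 after removal of the GC trend, 48 with array weights, 20 at the threshold of 0.1, 0 at 0.01, and from 0 to 22 with 1 library left out. It was 33 with a replicate block and 24 with the replicate block and the GC trend removed. Calls over all genes moved too, from 52 higher to 751 with array weights, 422 after removal of the GC trend, 311 with the block, 370 with both, 6 to 182 with 1 library left out, and 181 and 6 at the thresholds of 0.1 and 0.01. Same-numbered libraries had deviation correlations of 0.410, 0.0359 and 0.279 over all genes and 0.798, 0.0314 and 0.549 over the members. Of the 6 libraries, 4 correlated best with their own number. The titles give only a replicate number, and the fit reported did not take the numbers as pairs. The count of 0 called lower was 1, *RPL39L*, after removal of the GC trend and with array weights. The cause of these moves was not tested. Among the members named by rule, direction was reversed by quantile normalization for *RPL4* (−0.079), *RPL41* (−0.094), *RPL8* (−0.26) and *RPS2* (−0.11). It was reversed for *RPL35* with the rescaling (0.028), for *RPL8* with pseudogenes added (−0.00075) and array weights (−0.053), and for *RPS9* with median-of-ratios scaling (0.020), without mitochondrially encoded genes (0.0035), with the rescaling (0.10), and with the GC trend removed with or without the block (0.033). With 1 library left out, *RPL35* ranged from −0.36 to 0.092, *RPL38* from −0.036 to 0.31, *RPL8* from −0.24 to 0.16, *RPS2* from −0.15 to 0.30 and *RPS9* from −0.42 to 0.30.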

Other observations

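Pseudogenes of the members of any annotated kind, 1588 by their symbols, held 0.158 to 0.197% of TPM in control and 0.157 to 0.201% in knockdown libraries. These ranges overlapped, while the share of their parent genes did not. For 2 members the pseudogenes made up more than 5% of the TPM of gene and pseudogenes together, *RPS2* with 17.5% and *RPL23A* with 7.98%, so these TPM are uncertain. With pseudogene TPM added to each member, 75 of 79 members had positive log2 fold changes and 3 were called higher.

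The members lie on 21 chromosomes, with 12 on chromosome 19, 8 on chromosome 3, 6 on chromosome 17 and 5 on chromosome 1. On chromosome 19, where their median GC content was 57.0%, 7 of 12 members had all knockdown libraries above all control libraries and the median log2 fold change was 0.38. On chromosome 1 it was 5 of 5 with 0.46, on chromosome 17 it was 5 of 6 with 0.49, and on chromosome X, with *RPL10*, *RPL36A*, *RPL39* and *RPS4X*, it was 4 of 4 with 0.47. Small nucleolar RNAs, 60 in all, are annotated within 28 members. The 28 hosts had a median log2 fold change of 0.43, and 24 had all knockdown libraries above all control libraries. The 51 tested members without such an RNA had 0.43, and it was so for 38 of them. These counts by chromosome and by host stand beside 62 of all 79 members tested and 9.89% of all genes tested.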
